A study of Mus musculus with 16 samples.

Results

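The proteasome genes described here are all genes of the array's probe table whose symbols begin with Psma, Psmb, Psmc, Psmd, Psme, Psmf or Psmg, which gave 47 of 17097 genes measured. They comprise 5 immune members, Psmb8, Psmb9, Psmb10, Psme1 and Psme2, and 42 others. The proteasome is the protease that breaks down proteins marked with ubiquitin. Its core is a barrel of alpha and beta rings, capped by a regulatory particle whose ATPases unfold the substrate. In cells exposed to interferon gamma, and constitutively in many immune cells, Psmb8, Psmb9 and Psmb10 take the places of the catalytic subunits Psmb5, Psmb6 and Psmb7, and Psme1 and Psme2 form the PA28 activator. The resulting immunoproteasome is known for making peptides for MHC class I molecules.

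RNA came from macrophages isolated with CD11b beads from collagenase-digested fat of mice 19 to 21 weeks old, although a second label gives a different macrophage surface marker. Titles call the WT samples untreated and the knockout samples treated with the name of their genotype, and no agent is given. Source names of all samples end in the letters NCD, which are not spelled out. Each sample was a pool, with 300000 cells entering RNA isolation and 24 cycles of cDNA amplification before hybridisation. Both genotypes carried floxed alleles of Sucnr1, the receptor for extracellular succinate. The knockout, KO-LysM, also carried Cre driven by the lysozyme M promoter (LysM), active across myeloid cells and not in macrophages alone. The control, WT, carried the floxed alleles alone, so that an effect of Cre cannot be told apart from loss of the receptor. SAT is subcutaneous and VAT visceral adipose tissue. The 4 groups were therefore WT SAT, WT VAT, KO-LysM SAT and KO-LysM VAT, with 4 pools each, of which pools 1 and 2 belonged to day 1 and pools 3 and 4 to day 2. Nothing in the labels says whether pools came from separate animals, so p-values measure only the spread between these pools.

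Several facts of the arrays touch every comparison. Sucnr1 lay below background, which was set at 4.78 on the log2 scale, the 95th percentile of 41 olfactory receptor genes, and so did not check the genotype. Emx2, Akr1c18 and Adh7, genes that differ between depots, fell in WT VAT against WT SAT (by 1.33, 3.79 and 2.49) and rose in KO-LysM VAT against KO-LysM SAT (by 3.26, 4.93 and 3.86). Seminal vesicle genes averaged 10.06 to 10.76 on the arrays labelled KO-LysM SAT and 4.48 to 6.13 elsewhere. The depot and genotype directions below therefore cannot be told apart from an exchange of depot labels in one genotype, and they refer to the arrays as labelled. The interquartile range of an array's values was 2.12 to 2.29 in WT SAT, 2.01 to 2.54 in WT VAT, 2.37 to 2.63 in KO-LysM SAT and 2.36 to 2.62 in KO-LysM VAT. WT VAT pool 1 had the smallest range. The labelled cell type was present: 9 of 10 macrophage markers were above background in every group, Cd163 being the exception. By the same measure 7 of 8 T cell, at least 5 of 6 endothelial and at least 5 of 7 stromal markers were above background in every group. At most 3 of 7 NK cell markers were. The measure therefore does not show that the pools held macrophages alone.

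Of the 47 proteasome genes, 45 were above background in all groups. The remaining pair, Psma8 and Psmb11, encode subunits restricted to testis and thymic cortex, and lay below background in every group. Levels given here are log2 values of 1 probe set per gene, so they are compared between groups and not between genes. Psmb8 averaged 9.94 ± 0.10 in WT SAT and 9.78 ± 0.33 in WT VAT (SD, n = 4). On the knockout arrays its mean was 10.02 ± 0.16 in SAT and 9.34 ± 0.21 in VAT (SD, n = 4). Psmb2 and Psmb3, noncatalytic beta subunits, and the lid deubiquitinase Psmd14 had group means between 10.11 and 11.09. Psmc3ip and Psme3ip1 match the symbol rule without being subunits. Several genes had more than 1 probe set. Those of Psmb9 had means of 8.89 (the set used), 7.40 and 5.54. In that order they changed by 0.34, 0.08 and -0.14 in KO-LysM SAT against WT SAT. In KO-LysM VAT against KO-LysM SAT they changed by -0.58, -0.53 and -0.11. When asked whether the depot difference depended on the genotype, the same sets gave -0.64, -0.63 and -0.11. The size of the Psmb9 changes therefore depended on the probe set.

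The windows before the start sites of the catalytic genes that are exchanged are printed because the immune and the constitutive forms are known to answer to different regulators. The sequences are from RefSeq on GRCm38.p6, 250 bases upstream of the gene start and read on the gene's strand. They lie at chr17:34197945-34198194 on the plus strand (Psmb8), chr17:34187331-34187580 on the minus strand (Psmb9), chr8:105938393-105938642 on the minus strand (Psmb10), chr14:54617996-54618245 on the minus strand (Psmb5) and chr11:70525107-70525356 on the plus strand (Psmb6). Capitals mark matches on either strand to TGACNNNGC or to a pair of GAAA runs set 2 bases apart.
Psmb8: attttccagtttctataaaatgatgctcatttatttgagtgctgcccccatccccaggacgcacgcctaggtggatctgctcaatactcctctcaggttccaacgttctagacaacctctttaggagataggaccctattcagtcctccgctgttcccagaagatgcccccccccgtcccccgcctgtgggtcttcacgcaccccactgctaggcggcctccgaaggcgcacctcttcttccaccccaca
Psmb9: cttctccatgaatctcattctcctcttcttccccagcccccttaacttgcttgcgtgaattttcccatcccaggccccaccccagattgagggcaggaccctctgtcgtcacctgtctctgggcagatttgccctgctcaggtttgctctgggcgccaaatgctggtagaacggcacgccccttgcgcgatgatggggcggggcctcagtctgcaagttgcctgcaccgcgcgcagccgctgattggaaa
Psmb10: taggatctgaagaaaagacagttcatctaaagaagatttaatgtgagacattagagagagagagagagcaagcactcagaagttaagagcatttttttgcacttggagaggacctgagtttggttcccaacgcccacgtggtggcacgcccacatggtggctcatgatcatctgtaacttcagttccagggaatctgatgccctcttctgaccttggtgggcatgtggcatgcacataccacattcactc
Psmb5: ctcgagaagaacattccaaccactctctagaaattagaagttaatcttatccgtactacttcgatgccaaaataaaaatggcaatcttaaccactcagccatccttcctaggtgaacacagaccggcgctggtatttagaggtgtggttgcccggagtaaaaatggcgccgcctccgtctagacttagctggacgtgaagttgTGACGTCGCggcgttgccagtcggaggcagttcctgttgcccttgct
Psmb6: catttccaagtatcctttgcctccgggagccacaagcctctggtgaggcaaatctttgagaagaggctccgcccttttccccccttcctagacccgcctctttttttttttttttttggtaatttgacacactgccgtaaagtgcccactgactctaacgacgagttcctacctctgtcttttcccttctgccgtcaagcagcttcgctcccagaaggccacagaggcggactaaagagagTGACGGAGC

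Windows of 300 bases, reaching 50 bases past the start, were found for 39 of the 47 genes. Psmb5 and Psmb6 held TGACNNNGC, the core of an antioxidant response element, at positions -47 and -9, against 12.4% of 32851 such windows, and 0 of the immune genes did. Psmd9 and Psmd12 held it too, so that 4 of the 39 genes (10.3%) did, below the share of all windows. Psme1 held the pair of GAAA runs set 2 bases apart, the core of an interferon-stimulated response element, 10 bases after the start, against 3.44% of windows, and so did 4 genes that are not immune, Psmb3, Psmd4, Psmd9 and Psmg4. The other motifs searched were CCAAT, present in 15 of the 39 genes and 37.4% of windows, and GGAAGTG, present in 7 of the 39 and 11% of windows; they are not capitalised. The 4 motifs given here were searched on both strands, a match may overlap another, and the motifs and windows were chosen after expression values had been seen. On chromosome 17 Psmb9 and Psmb8 are separated by Tap1 among protein-coding genes, and on chromosome 14 Psme1 and Psme2 by Emc9.

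The comparison of depots on the knockout arrays asks how macrophages of visceral and subcutaneous fat differ without Sucnr1. All 3 immune catalytic subunits fell in KO-LysM VAT against KO-LysM SAT, and 0 of the 42 other genes passed in either direction. Psmb8 in KO-LysM SAT was at 9.92, 9.86, 10.18 and 10.14 in pools 1 to 4, and in KO-LysM VAT at 9.28, 9.09, 9.57 and 9.43. The highest VAT pool of Psmb8 lay below the lowest SAT pool. Psmb9 was at 9.07, 9.14, 9.20 and 9.34 in SAT and at 8.57, 8.63, 8.56 and 8.68 in VAT, again with no overlap. Psmb10 was at 9.52, 9.41, 9.48 and 9.54 in SAT and at 8.80, 8.60, 9.07 and 8.80 in VAT, with every VAT pool lower. By limma, with Benjamini-Hochberg adjustment over all genes, Psmb8 fell by 0.68 ± 0.12 (SE, 1.61-fold, adjusted p = 0.00354), Psmb9 by 0.58 ± 0.10 (1.49-fold, adjusted p = 0.00366) and Psmb10 by 0.67 ± 0.14 (1.59-fold, adjusted p = 0.00989). These 3 of 5 stand beside 2.39% of all genes that fell, while 1.92% rose and 4.32% were called in all.

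The PA28 genes did not pass in that comparison. Psme1, the alpha subunit of the activator, was at 9.25, 9.15, 9.50 and 9.43 in KO-LysM SAT and 8.98, 8.74, 9.15 and 9.0 in KO-LysM VAT, where pool 3 of VAT overlapped pool 2 of SAT (log2 change -0.36 ± 0.15, limma adjusted p = 0.29). Psme2, the beta subunit, was at 8.18, 8.11, 8.39 and 8.56 in SAT and 7.60, 7.39, 8.10 and 7.79 in VAT, with every VAT pool just lower (-0.59 ± 0.19, limma adjusted p = 0.104). Without WT VAT pool 1, whose group is outside this comparison but shares the estimate of spread, both passed and all 5 immune genes were called. Over all genes 3.52% fell in that fit. Groups did not overlap, with VAT lower, for 4 of 5 immune genes, 2 of 42 others and 5.03% of all genes.

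The catalytic subunits that the immune forms replace showed smaller differences on the same arrays. Psmb5 changed by -0.15 (95% interval -0.39 to 0.09), Psmb6 by -0.21 (-0.43 to 0.01) and Psmb7 by -0.01 (-0.44 to 0.42), and none of the 3 passed by limma; with array spread as a term the Psmb7 value was 0.05. The median change was -0.59 over the 5 immune genes, -0.03 over the 42 others and 0.00 over all genes. With quantile normalization, median centring or array spread as a term the immune median was -0.59, -0.60 and -0.56. On day 1 alone the 3 immune catalytic genes changed by -0.70 (Psmb8), -0.51 (Psmb9) and -0.76 (Psmb10), and on day 2 by -0.66, -0.65 and -0.58.

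**Figure D1:**
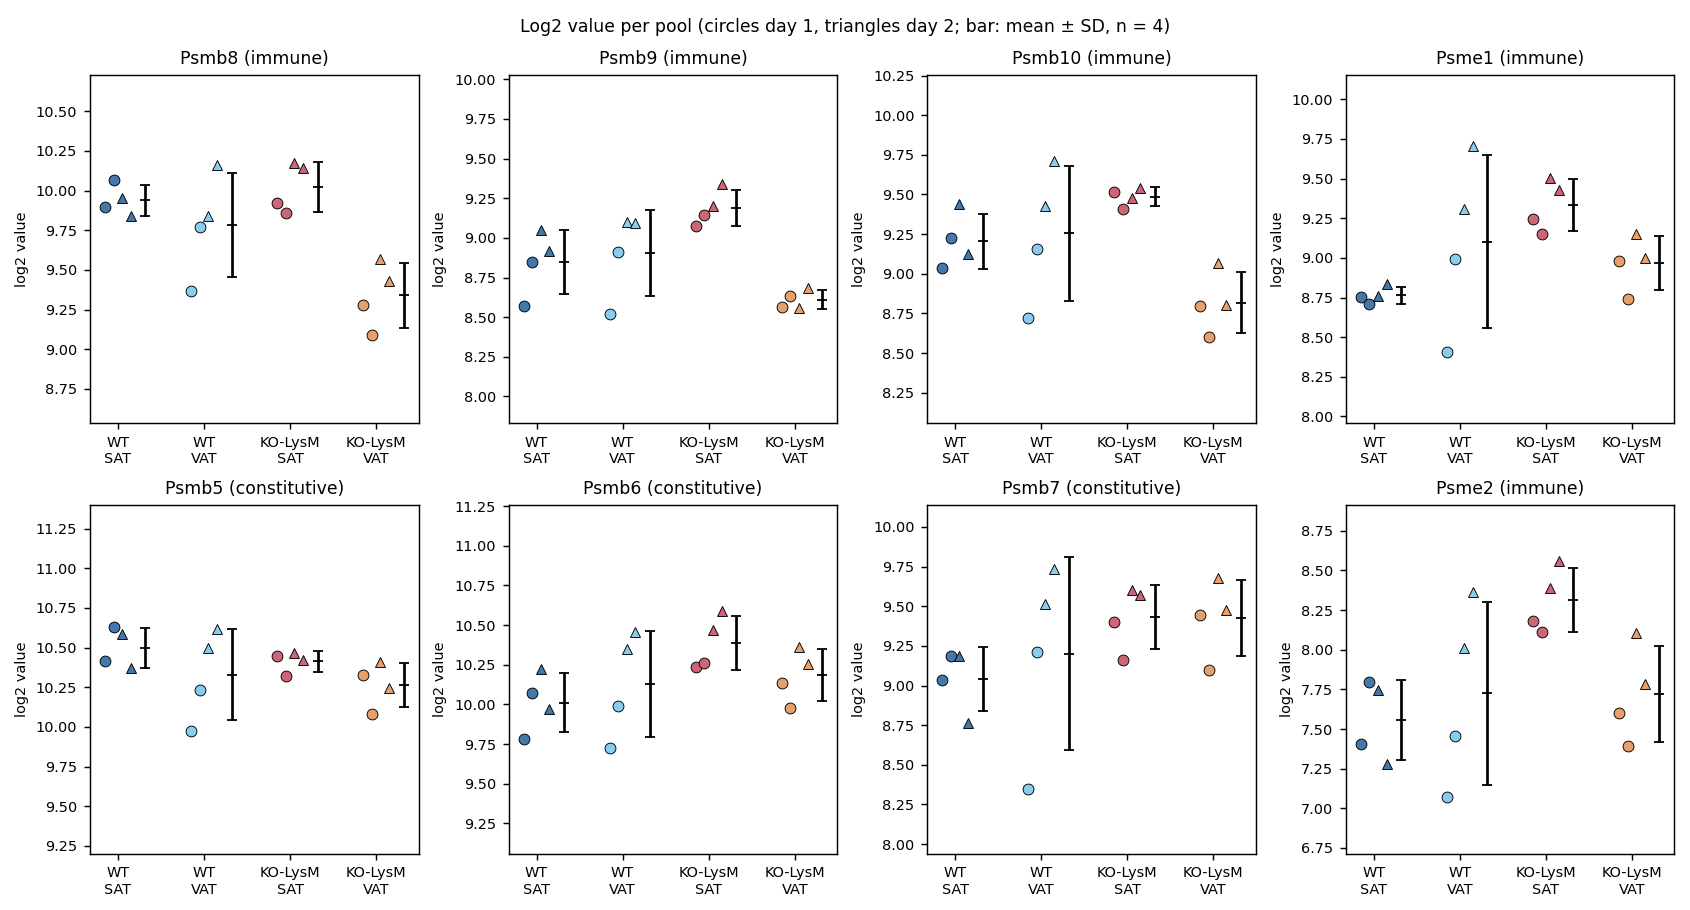
Log2 value (vertical axis) of the 5 immune genes and of Psmb5, Psmb6 and Psmb7 in each pool of the 4 groups; circles are day 1, triangles day 2, and bars give mean ± SD of 4 pools. KO-LysM VAT lies below KO-LysM SAT without overlap in Psmb8, Psmb9, Psmb10 and Psme2.

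Markers of macrophages moved on the same arrays. Of 10 macrophage markers 5 fell in KO-LysM VAT against KO-LysM SAT, beside 2.39% of all genes, with a median of -0.59 over the list, and their mean per array was 7.90 to 8.42 in SAT and 7.43 to 7.94 in VAT. Endothelial markers had a median of -0.54, with 0 of 6 passing, and an array mean of 6.90 to 7.30 in SAT and 5.66 to 7.02 in VAT. All 5 seminal vesicle genes fell (median -6.16), and 5 of 6 skeletal muscle genes rose (median 0.98, array means of 4.83 to 5.04 in SAT and 5.84 to 6.57 in VAT). Of the T cell markers 2 of 8 rose, of the stromal markers 2 of 7, of the neutrophil markers 1 of 4 and of the B cell markers 0 of 6, and 1 of 5 dendritic cell markers fell. The part of cell composition in the falls of Psmb8, Psmb9 and Psmb10 was not tested. Fewer cells of a type and less RNA per cell cannot be told apart in these pools.

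The difference between each immune subunit and its counterpart sets both genes on the same array. In KO-LysM SAT, Psmb10 minus Psmb7 ran from -0.12 to 0.24, and in KO-LysM VAT from -0.68 to -0.50, a shift of -0.66. Psmb8 minus Psmb5 shifted by -0.54, from a range of -0.53 to -0.28 in SAT to one of -1.05 to -0.82 in VAT. Psmb9 minus Psmb6 shifted by -0.37, from -1.27 to -1.12 in SAT to -1.80 to -1.35 in VAT. None of the 3 pairs overlapped between the depots. In an exact two-sided permutation test over pools each reached p = 0.0286, the smallest that 4 against 4 allows. Over the 12 tests made (3 pairs in 4 comparisons) the adjusted p was 0.0686, so 0 passed. After that adjustment a pair could pass only if most of the 12 tests reached the smallest p. The 0 calls therefore say little about the shifts. On the WT arrays the depots differed by 0.01 for Psmb8 minus Psmb5, -0.06 for Psmb9 minus Psmb6 and -0.11 for Psmb10 minus Psmb7, with overlapping ranges. From WT VAT to KO-LysM VAT the same differences shifted by -0.38, -0.35 and -0.66. Only the ranges of Psmb9 minus Psmb6 overlapped there (permutation adjusted p = 0.098, against 0.0686 for the others). From WT SAT to KO-LysM SAT the shifts were 0.17, -0.04 and -0.11, with overlapping ranges.

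**Figure D2:**
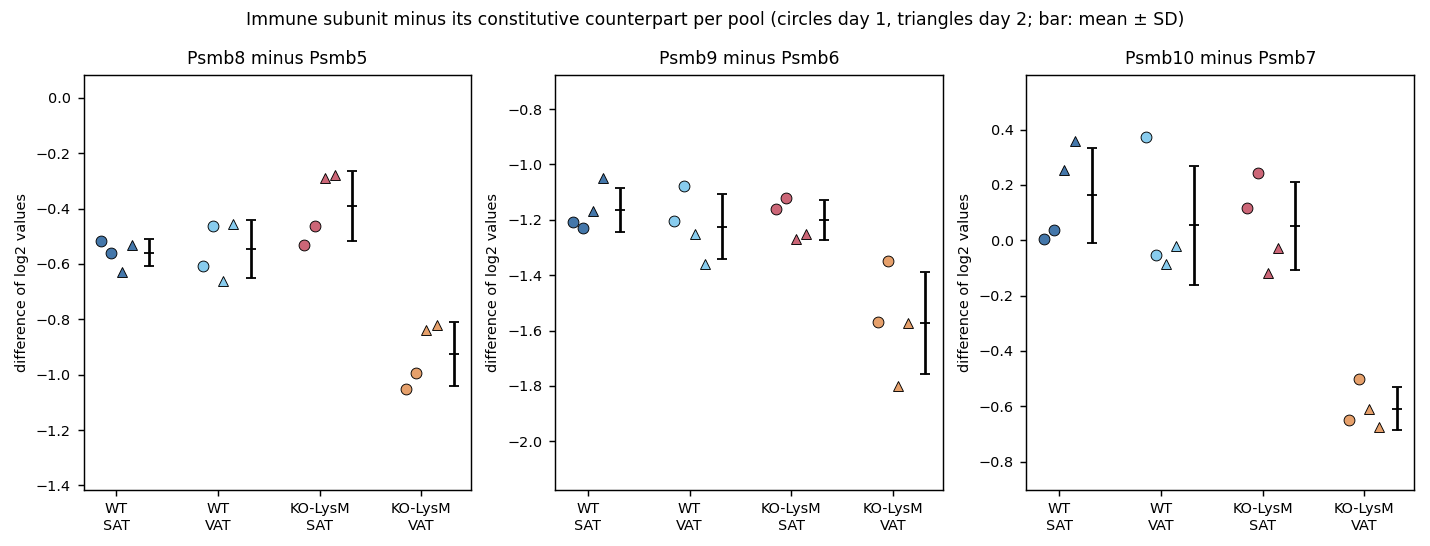
Difference of log2 values between an immune subunit and its constitutive counterpart (vertical axis) in each pool of the 4 groups, with mean ± SD of 4 pools. KO-LysM VAT is lowest in each panel, at means of -0.93, -1.57 and -0.61.

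On the WT arrays the same depot comparison called 0 of 5 immune and 0 of 42 other genes by limma, against 2.84% of all genes. Psmb8 was at 9.89, 10.07, 9.95 and 9.84 in WT SAT and at 9.37, 9.77, 9.84 and 10.16 in WT VAT. The depots overlapped, and pool 1 of WT VAT was the lowest. Psme1 was at 8.75, 8.71, 8.76 and 8.84 in WT SAT and at 8.41, 8.99, 9.31 and 9.70 in WT VAT, with a spread about pools that was much wider in VAT. Its change was 0.34 ± 0.15 (limma adjusted p = 0.327), which passed at 0.53 without WT VAT pool 1. Without that pool 1 of 5 immune and 4 of 42 other genes passed, all higher in VAT, beside 6.82% of all genes higher and 10% called in the same fit. Psmb9, Psmb10 and Psme2 changed by 0.06, 0.05 and 0.17, values that turn sign under some alternatives, and Psmb8 by -0.15.

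**Figure D3:**
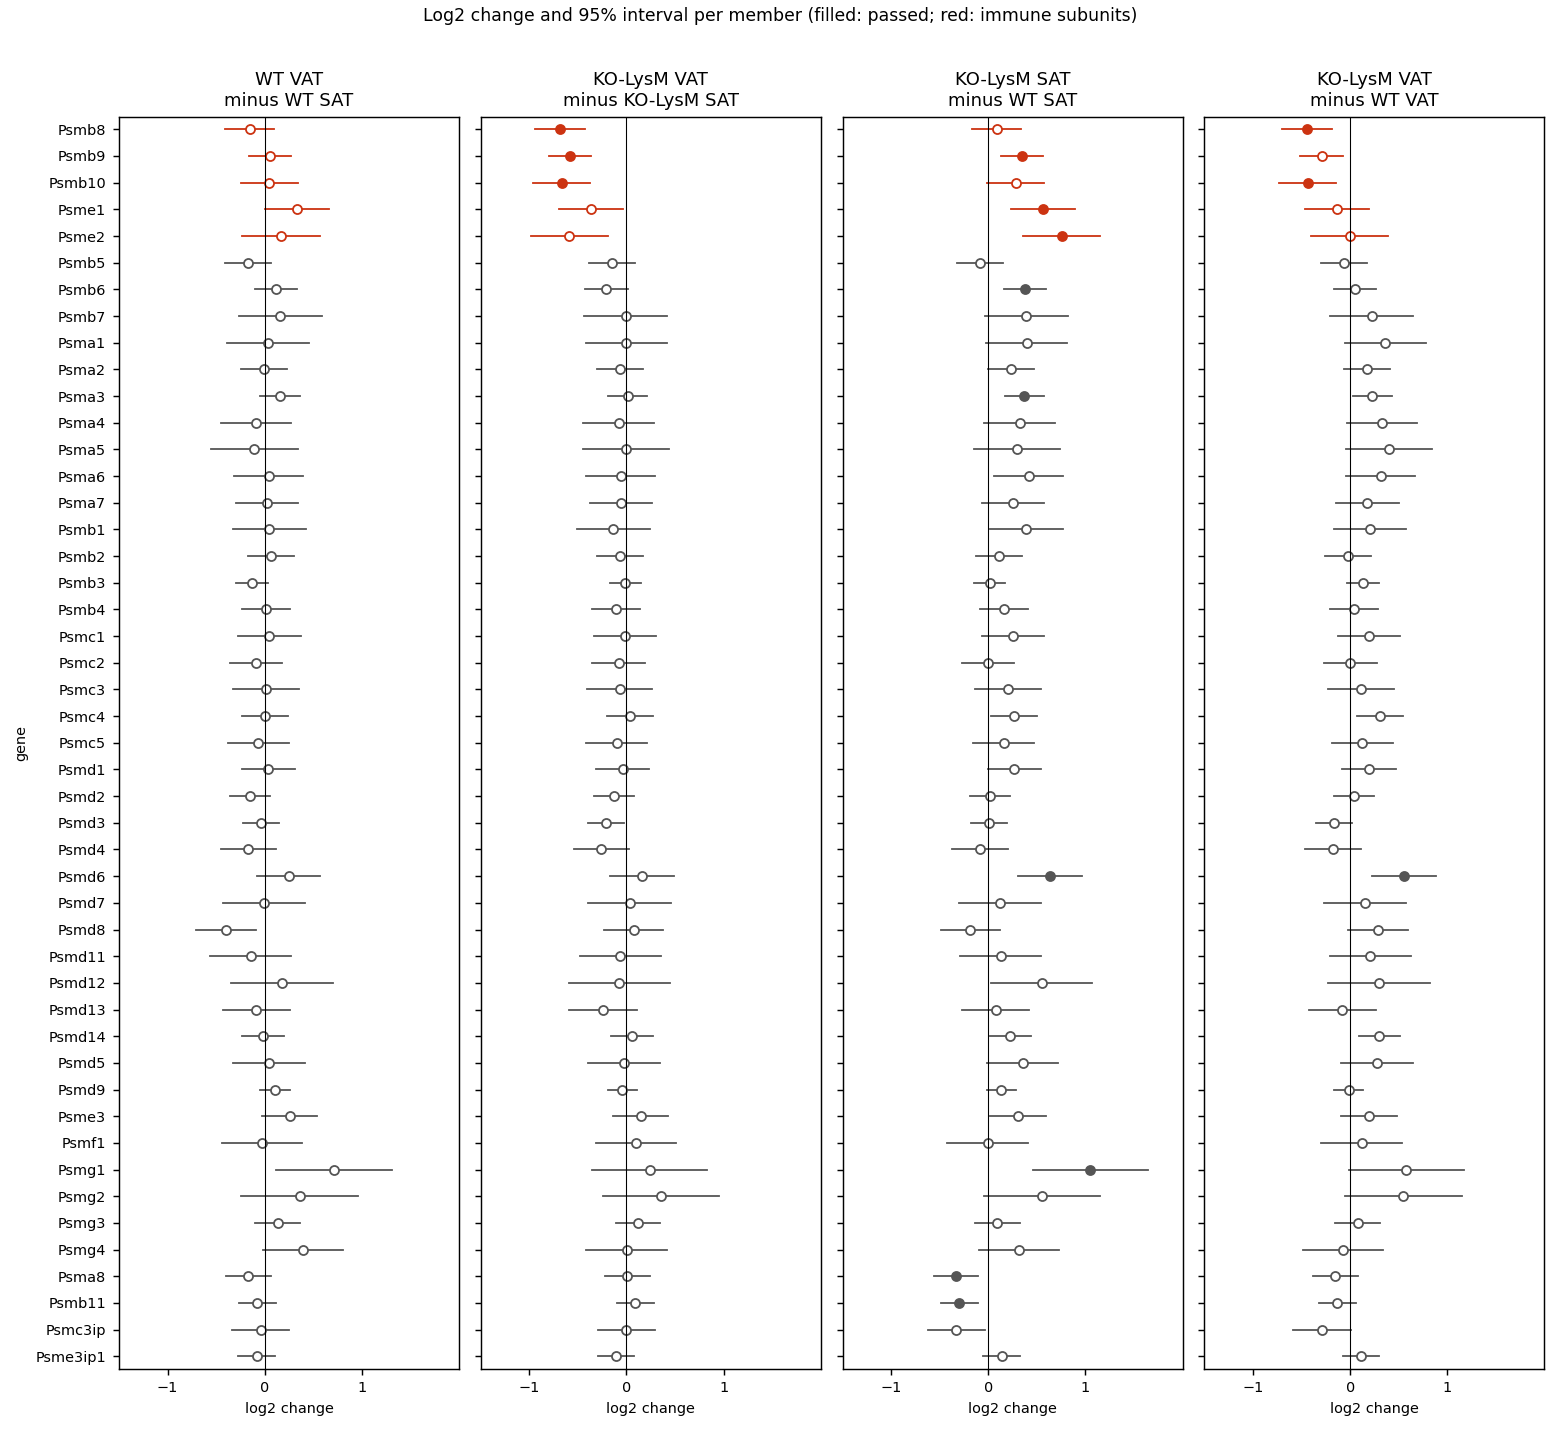
Log2 change (horizontal axis) with its 95% interval for each of the 47 genes (rows) in 4 comparisons (panels); red marks the 5 immune genes and filled points passed at an adjusted p under 0.05. In KO-LysM VAT minus KO-LysM SAT the filled points are Psmb8, Psmb9 and Psmb10.

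Whether the depot difference depended on the genotype was tested directly, by subtracting the effect of the knockout in SAT from its effect in VAT. Psmb9 passed at -0.64 ± 0.14 (limma adjusted p = 0.018), and the values of the other immune genes were -0.53 (Psmb8, adjusted p = 0.115), -0.72 (Psmb10, 0.051), -0.70 (Psme1, 0.101) and -0.76 (Psme2, 0.158). That is 1 of 5 immune genes lower, beside 0 of 42 others, 2.12% of all genes lower and 4.22% called. The immune median was -0.70, and it remained between -0.74 and -0.51 under quantile normalization, median centring and array spread as a term. The call for Psmb9 was lost with no day term, on day 1 alone and with its probe set of largest variance. Without WT VAT pool 1 all 5 immune genes passed, and without WT SAT pool 2 4 of 5 did. Over all genes 4.79% and 2.28% were called lower in those fits. Psmb5, Psmb6 and Psmb7 were at 0.02, -0.33 and -0.17, none passing, and Psmb5 turned sign with arrays centred or weighted while Psmb7 did so with array spread as a term.

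The comparison of genotypes in visceral fat asks what the knockout changed there. Psmb8 and Psmb10 fell in KO-LysM VAT against WT VAT, by 0.44 ± 0.12 (1.36-fold, limma adjusted p = 0.0242) and 0.44 ± 0.14 (1.35-fold, limma adjusted p = 0.0434). The Psmb10 call was lost in 19 of 28 alternatives and kept in only 3 of the 16 fits without 1 pool. That of Psmb8 was lost in 8 of 28 and kept in 13 of the 16. Psmb10 was at 8.72, 9.15, 9.43 and 9.71 in WT VAT, and 3 of the 4 KO-LysM VAT pools lay between 8.80 and 9.07, inside that range. Psmb9 (-0.30), Psme1 (-0.14) and Psme2 (-0.01) did not pass, and the last 2 turned sign on day 1 alone. These 2 of 5 stand beside 5.76% of all genes that fell, with 15.9% called in all. On these arrays 3 of 10 macrophage markers were also lower and 5 of 6 skeletal muscle genes higher, and their part was not tested. The group ranges overlapped for all 5 (5.64% of all genes lay lower with no overlap). The number of immune genes called ran from 0 to 3 when pools were left out, and was 0 without WT VAT pool 2, KO-LysM VAT pool 1 or KO-LysM VAT pool 2, and 1 in 10 others. With quantile normalization 4 of 5 immune genes fell, with array spread as a term all 5 did, and with arrays centred or with no day term 0 did. Over all genes 7.2%, 6.25%, 3.36% and 1.67% fell in those fits, in that order.

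Among the 42 others in visceral fat only Psmd6, a lid subunit of the regulatory particle, passed, and it rose by 0.55 ± 0.15 (limma adjusted p = 0.0279), beside 10.2% of all genes that rose. Psmd6 was at 8.67, 9.19, 9.85 and 9.76 in WT VAT and at 9.71, 9.79, 10.12 and 10.05 in KO-LysM VAT. The ranges overlapped, WT VAT pools 1 and 2 being the low ones. Its call was lost when WT VAT pool 1 or 2 or KO-LysM VAT pool 1, 2 or 3 was left out, and with array spread as a term (0.23). The Psmd6 call was also lost with no day term, on day 2 alone and on the compared groups alone. With the mean or the most variable of its probe sets it was lost too. The change was 0.82 on day 1 alone and 0.28 on day 2 alone. Psmb5, Psmb6 and Psmb7 changed by -0.06, 0.05 and 0.22, which differ in sign with the processing.

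The same comparison in subcutaneous fat called 3 immune genes. Psme1, Psme2 and Psmb9 rose in KO-LysM SAT against WT SAT, whereas with array spread as a term 0 of the 5 immune genes passed. Over all genes 1.58% rose in that fit. Array spread ran from 2.12 to 2.29 in WT SAT and from 2.37 to 2.63 in KO-LysM SAT. The ranges did not overlap, so that fit cannot tell genotype apart from array spread here. Psme2 was at 7.40, 7.80, 7.75 and 7.28 in WT SAT and at 8.18, 8.11, 8.39 and 8.56 in KO-LysM SAT. No pool overlapped, and the same was true of Psme1 (8.71 to 8.84 against 9.15 to 9.50). Knockout pools lay higher with no overlap for 3 of 5 immune genes and 16% of all genes. By limma Psme2 rose by 0.76 ± 0.19 (1.69-fold, adjusted p = 0.00893), Psme1 by 0.57 ± 0.15 (1.48-fold, adjusted p = 0.014) and Psmb9 by 0.34 ± 0.10 (1.27-fold, adjusted p = 0.0201). With array spread as a term the values were 0.01, 0.06 and 0.17, and with quantile normalization 0.44, 0.29 and 0.05, of which the first pair passed. These 3 of 5 stand beside 16.7% of all genes that rose, with 36.7% called in all. Psmb8 (0.09) and Psmb10 (0.28) did not pass, and turned to -0.30 and -0.18 with array spread as a term. Markers of other cell types moved in the same comparison, in which 20% of all genes fell and 16.7% rose. T cell markers fell in 7 of 8 cases and rose in 1 (array means of 5.90 to 6.26 in WT SAT and 5.11 to 5.36 in KO-LysM SAT), B cell markers fell in 4 of 6 (5.59 to 6.0 and 4.90 to 5.20) and skeletal muscle genes in 6 of 6 (7.51 to 8.51 and 4.83 to 5.04). Dendritic cell markers fell in 3 of 5 with 1 higher, NK cell markers in 2 of 7 and neutrophil markers in 2 of 4. Of these last lists 3 of 5, 3 of 7 and 2 of 4 markers were above background in WT SAT. Endothelial markers rose in 3 of 6 (5.85 to 6.15 and 6.90 to 7.30), stromal markers in 4 of 7 with 1 lower, seminal vesicle genes in 5 of 5 and macrophage markers in 0 of 10 with 1 lower. Their part in the rises of Psme1, Psme2 and Psmb9 was not tested. The Psmb9 call was also lost without WT SAT pool 1 or 4 or KO-LysM SAT pool 4, and with the mean or the most variable of its probe sets. With no day term and on either day alone it was lost too.

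Of the 42 others 4 rose and 2 fell in KO-LysM SAT against WT SAT, beside 16.7% and 20% of all genes. With array spread as a term 0 rose and 12 fell, beside 1.58% and 6.07% of all genes. With quantile normalization 4 rose and 6 fell, beside 13.7% and 12.9% of all genes. Psmd6 rose by 0.64 ± 0.15 (limma adjusted p = 0.00812), the alpha ring subunit Psma3 by 0.37 ± 0.09 (0.0106), Psmb6 by 0.38 ± 0.10 (0.0136) and Psmg1, an assembly chaperone of the core, by 1.05 ± 0.28 (0.0123). Psmg1 was at 7.01, 6.99, 7.07 and 6.50 in WT SAT and at 7.72, 7.51, 8.21 and 8.33 in KO-LysM SAT, every knockout pool higher; with array spread as a term its value was -0.06. Psma8 and Psmb11, both below background in every group, were those called lower, for which no size is given, and these calls were lost under quantile normalization, centring and array spread as a term. Without WT VAT pool 1 the others called numbered 19, without WT SAT pool 2 12 and without WT SAT pool 4 3. Over all genes 46.6%, 43.2% and 18% were called in those fits. Psmb5 (-0.08) and Psmb7 (0.39) did not pass and each turned sign under an alternative.

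**Figure D4:**
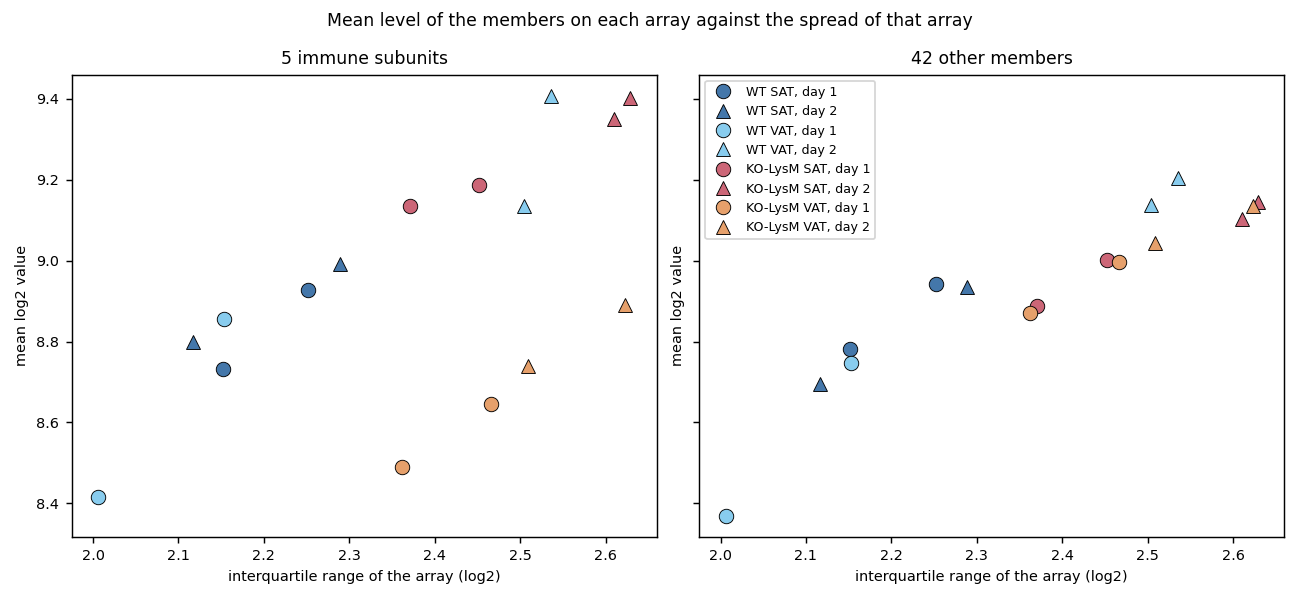
Mean log2 value of the 5 immune genes (left) and the 42 others (right) on each of 16 arrays, against the interquartile range of that array; shapes give the day and colours the group. The KO-LysM VAT arrays lie between 8.49 and 8.89 for the immune genes and between 8.87 and 9.13 for the others.

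The mean over the 42 others per array ran from 8.70 to 8.94 in WT SAT, 8.37 to 9.21 in WT VAT, 8.89 to 9.15 in KO-LysM SAT and 8.87 to 9.13 in KO-LysM VAT. WT VAT pool 1, the array of least spread, gave the lowest of these values. The immune mean ran from 8.73 to 8.99, 8.42 to 9.41, 9.13 to 9.40 and 8.49 to 8.89 in the same order of groups. Every KO-LysM VAT immune mean lay below every KO-LysM SAT one. The part of array spread in the knockout effects was not tested beyond the fits with it as a term. Every knockout array had a wider interquartile range than every WT SAT array. In comparisons with WT SAT, those fits therefore cannot tell genotype apart from array spread.

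Averaged over both depots, Psme2 was the immune gene that passed (0.38 ± 0.13, limma adjusted p = 0.0284), and of the 42 others 14 rose and 3 fell, beside 22.5% and 29.2% of all genes and 51.7% called. That balance turned with the processing: 0 rose and 15 fell with array spread as a term, 3 rose and 8 fell with quantile normalization, and 20 rose and 0 fell with arrays centred. Over all genes 1.96%, 18.6% and 27.3% rose in those fits, and 5.95%, 20.2% and 16.4% fell. By role, 5 of 7 alpha ring genes passed, 3 of 11 regulatory particle genes without ATPase activity, 1 of 5 base ATPases, 2 of 4 core assembly chaperones and 0 of 4 noncatalytic beta genes. The largest changes were those of Psmg1 (0.81 ± 0.20, limma adjusted p = 0.00481) and Psmd6 (0.59 ± 0.11, limma adjusted p = 0.00107). Psma3 (0.30), Psmd14 (0.26), the base ATPase Psmc4 (0.28), Psma6 (0.36), Psma1 (0.38), Psma4 (0.32), Psmb6 (0.22), the chaperone Psmg2 (0.55) and the nuclear activator Psme3 (0.25) also passed, as did Psma2, Psmd1 and Psmd5. The calls of Psme3, Psmg2, Psma4, Psma1 and Psme2 held in 10, 14, 15, 17 and 17 of 27 alternatives. Psmb11, Psma8 and Psmc3ip were lower, the first 2 below background throughout. With array spread as a term Psma1, Psma4, Psma6, Psmb6, Psme3, Psmg1, Psmg2 and Psme2 took the opposite sign. The inhibitor Psmf1 was at 0.05 in this average and did not pass.

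Because depot labels could not be checked, the groups were also set against each other across depots. KO-LysM SAT against WT VAT called 0 of 5 immune and 0 of 42 other genes, beside 6.89% of all genes, with immune changes from 0.23 to 0.59, of which those of Psmb8, Psmb10 and Psme1 turned sign with array spread as a term. KO-LysM VAT against WT SAT called 2 of 5 immune genes lower, Psmb8 by 0.60 ± 0.12 (limma adjusted p = 0.00239) and Psmb10 by 0.39 ± 0.14 (limma adjusted p = 0.0368), beside 21% of all genes lower and 39.3% called. There 7 of 42 others rose and 1 fell, beside 18.3% of all genes higher, Psmg1 by 1.29, Psmg2 by 0.91, Psmd6 by 0.80, Psme3 by 0.45, Psma3 by 0.39, Psmc4 by 0.30 and Psmd14 by 0.28, with Psma8 lower. With array spread as a term 0 others rose and 18 fell, beside 3.48% and 7.39% of all genes. The Psmb10 call was lost in 6 of the fits without 1 pool, and that of Psmb8 in none. Among the others, the calls of Psmc4, Psmd14 and Psma8 were kept in 5, 10 and 11 of these 16 fits. Those of Psmg2 and Psme3 were kept in 13 and 14, and those of Psmg1, Psmd6 and Psma3 in all 16. These contrasts share pools with those above, so their values are not independent.

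Genes that act with the proteasome were described from lists chosen with the labels and the pathway in view. Of 10 measured class I presentation genes, 1 fell in KO-LysM VAT against KO-LysM SAT, beside 2.39% of all genes: Nlrc5, the transactivator of class I genes, by 0.74 ± 0.13 (limma adjusted p = 0.00446). Of 14 interferon regulators 3 fell there, Irf1, a transcription factor induced by interferon gamma, by 0.67 ± 0.10 (limma adjusted p = 0.00104), Irf7 by 0.50 and Ifnar1 by 0.39, with a list median of -0.33. Irf1 also fell in KO-LysM VAT against WT VAT, by 0.44 (limma adjusted p = 0.0116), as did Irf7 by 0.39, a call lost in 16 of 28 alternatives, among them no day term, arrays centred and 10 fits without 1 pool. In KO-LysM SAT against WT SAT Nlrc5 rose by 1.07 (limma adjusted p = 0.000168) and Irf1 by 0.36 (limma adjusted p = 0.0161), and the latter call was lost with quantile normalization, with array spread as a term and without WT SAT pool 4. Of the 10 presentation genes 5 rose and 1 fell there, and of the 14 regulators 6 rose and 1 fell, beside 16.7% and 20% of all genes. Those that fell were the class I gene H2-D1, by 0.17, and Ifng, which was below background in every group, as was Irf2 among those that rose. Canx and Ifngr1 rose by 0.42 and 0.59, and these genes with H2-D1, Irf2 and Ifng were named after their values were seen. Calr, a chaperone of class I molecules, rose by 0.90, and Tapbp, which bridges class I molecules to the peptide transporter, by 0.51. The peptidase Erap1 rose there by 0.44, the kinase Jak2 by 1.02, Stat2 by 0.74 and Irf9 by 0.45. With array spread as a term the calls of Tapbp, Erap1, Jak2 and Stat2 were lost, that of Calr was not, and Irf9 took the opposite sign. In WT VAT against WT SAT Calr rose by 0.52, a call lost without WT SAT pool 1 or 4 or WT VAT pool 2, 3 or 4. The Irf7 and Ifnar1 calls between the knockout depots were each lost when most single pools of the groups compared were left out.

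Between the knockout depots 1 of 10 measured partners of the proteasome was called, lower, beside 2.39% of all genes. It was Zfand5, which was below background in every group, so no size is given. The assembly factor Pomp (-0.05) and Nfe2l1, the factor that raises proteasome genes when the protease is impaired (-0.17), did not pass. In KO-LysM SAT against WT SAT 4 of 10 partners were called higher, beside 16.7% of all genes. Uchl5, a deubiquitinase of the regulatory particle, rose by 0.62 (limma adjusted p = 0.0219). Another deubiquitinase of that particle, Usp14, averaged 4.47 in WT SAT, below background, and 6.30 in KO-LysM SAT (limma adjusted p = 0.00769), so the size of its rise is not given. The remaining pair, Ecpas and Zfand5, were below background in every group. With array spread as a term Usp14, Uchl5 and Ecpas took the opposite sign and the Zfand5 call was lost, as it also was with the mean of probe sets. The Uchl5 call was lost without pool 3 or 4 of either group. Of 9 ubiquitin and shuttle genes 0 passed between the knockout depots, 4 rose in KO-LysM SAT against WT SAT (16.7% of all genes) and 3 in KO-LysM VAT against WT VAT (10.2%). Ubqln1 rose by 1.13 and 0.66 and Rad23b by 0.48 and 0.64 in those comparisons. With array spread as a term the Rad23b call in SAT was lost. Tap1, B2m, Psmc6, Psmd10 and Psme4 were not analysed here.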

How the data were processed

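Expression was measured on 16 Affymetrix arrays, 4 pools in each of 4 groups. Per the submitters' processing notes, the authors used RMA from the affy package (versions not given), so the deposited log2 value of a probe set is background-corrected and quantile-normalised before summary. Of 45141 probe sets, 28898 were paired with 1 gene and 551 with several. A gene with several probe sets was taken at the brightest, by mean over the arrays, which gave 17097 genes. Arrays have no read depth, and their number limits the precision.

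All genes and arrays entered 1 limma fit (version 3.58.1, R 4.3.3: lmFit, contrasts.fit, eBayes) with group and day as terms, from which 8 comparisons were taken. Two-sided p-values were adjusted over all genes by Benjamini-Hochberg, and a gene was called under 0.05. Errors of changes are standard errors of the fit. The model was tested on simulated data. Differences between an immune subunit and its counterpart were tested by exact permutation over pools. Pool numbers are shared between groups. Residuals of same-numbered pools, taken over all 4 groups, correlated between -0.674 and 0.535, with 5 of 24 pairs over 0.1. Pools of other numbers on the same day gave -0.775 to 0.508, also with 5 of 24 over 0.1. Pools were not treated as pairs. Whether SAT and VAT pools of a genotype shared animals was not tested by itself, and these values cannot decide it.

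The 8 subunits Psmb5 to Psmb10, Psme1 and Psme2 were named in every comparison, with up to 8 further proteasome genes and up to 4 genes of each partner list that passed with the smallest p. Partner genes are named in the 4 comparisons of depots within a genotype or genotypes within a depot, a restriction made after values had been seen. Roles, and the members and lists themselves, were chosen with earlier results of these data known. As alternatives the day term was dropped, days were fitted singly, pool number was a block, and the compared groups were fitted by themselves. Others were quantile normalization, centring, a filter on the lowest 40% of probe sets, the mean or the most variable probe set of a gene, array spread as a term, array weights, and leaving out each array. The result of 1 further motif is not reported here.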

Additional observations from a re-analysis of the deposited data

Results flagged for a closer look

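Among 96 sets of 4 pools examined, 3 held a pool far from the other 3; chance alone gives about 1 in 20 such sets. Psmg1 in WT SAT pool 4 was at 6.50, with the other pools at 6.99 to 7.07. Psmg2 in the same pool was at 5.74, with the others at 6.59 to 6.70. Psmg4 in KO-LysM SAT pool 2 was at 7.53, with the others at 8.04 to 8.11. The knockout effect on Psmb9 in VAT minus that in SAT was -0.64, a difference between depots that the interaction test called (limma adjusted p = 0.018).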

How the results depend on the processing

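The falls of Psmb8, Psmb9 and Psmb10 in KO-LysM VAT against KO-LysM SAT kept their direction in every alternative run, and all 3 were called in each except on day 1, where none was, and on day 2, where Psmb9 was; a day holds 2 pools per group. The count of immune subunits called elsewhere, and the direction of several knockout effects on the other proteasome genes, changed with array spread as a term, quantile normalization or single pools. With the replicate block, pool number as a fixed term, 1 of 5 immune genes was called in KO-LysM VAT against WT VAT and against WT SAT, and 645 of all genes in KO-LysM SAT against WT VAT. The block changed no other count of calls by over 1.5 times. The fit on the compared groups alone was not run for the average and for the difference of knockout effects, which use all 4 groups. The 12 paired subunit differences gave 0 calls under quantile normalization, the mean of probe sets and each pool left out. With so few pools a call was hardly possible in any of these fits, so these 0 calls do not show a stable outcome. Signal below background limits Psma8, Psmb11, Zfand5, Ecpas, Irf2 and Ifng, and Usp14 in WT SAT. The cause of each change below was not tested.

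In WT VAT minus WT SAT, 0 immune genes were called, and 2 on day 2 and 0 to 1 with a pool left out. Calls of other proteasome genes numbered 0, and 15 on day 2, 1 after quantile normalization, 6 with array spread, 1 with array weights and 0 to 4 with a pool left out. Over all genes 486 were called, and 212 with no day term, 199 on day 1, 4222 on day 2, 60 on the compared groups, 1116 after quantile normalization, 1502 with array spread and 231 to 1711 with a pool left out. Signs turned on day 1 at -0.19 (Psmb10), -0.031 (Psme1), -0.34 (Psme2), -0.069 (Psmb6) and -0.33 (Psmb7), on day 2 at 0.10 (Psmb8), 0.08 (Psmb5) and 0.23 (Pomp), with array spread at -0.10 (Psmb10), -0.063 (Psme2) and -0.087 (Psmb7) and with array weights at 0.04 (Pomp). With a pool left out, Psmb8 minus Psmb5 ran from -0.016 to 0.053, Psmb9 ran from -0.003 to 0.16, Pomp ran from -0.13 to 0.13, Psmb10 ran from -0.07 to 0.19, Psme2 ran from -0.006 to 0.33 and Psmb7 ran from -0.004 to 0.41.

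In KO-LysM VAT minus KO-LysM SAT, 3 immune genes were called, and 0 on day 1, 1 on day 2, 5 on the compared groups, 5 after quantile normalization, 5 with array spread, 5 with array weights and 3 to 5 with a pool left out. Among other proteasome genes 0 were called, and 2 after quantile normalization, 1 with array spread and 3 with array weights. Over all genes 738 were called, and 422 with no day term, 262 on day 1, 199 on day 2, 2047 on the compared groups, 1968 with array spread, 2203 with array weights and 461 to 1054 with a pool left out. The sign changed with array spread at 0.055 (Psmb7). When single pools were removed, Psmb7 ran from -0.076 to 0.05.

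In KO-LysM SAT minus WT SAT, 3 immune genes were called, and 1 with no day term, 0 on day 1 and 0 with array spread. Calls of other proteasome genes numbered 6, and 0 on day 1, 18 on day 2, 16 on the compared groups, 10 after quantile normalization, 12 with array spread, 18 with array weights and 3 to 19 with a pool left out. Over all genes 6279 were called, and 3563 with no day term, 582 on day 1, 1308 with array spread and 3071 to 7960 with a pool left out. Signs turned on day 1 at -0.092 (Psmb8), after quantile normalization at -0.15 (Psmb8) and -0.028 (Nfe2l1), after centring at 0.016 (Psmb5) and with array spread at -0.18 (Psmb10), -0.30 (Psmb8), -0.40 (Psmb7), -0.061 (Psmg1), -0.072 (Nfe2l1), -0.15 (Pomp), -0.04 (Usp14), -0.12 (Uchl5), -0.059 (Ecpas), -0.007 (Irf9), -0.10 (Ube2l6) and -0.15 (Ufd1). With a pool left out, Psmb9 minus Psmb6 ran from -0.063 to 0.002.

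In KO-LysM VAT minus WT VAT, 2 immune genes were called, and 0 with no day term, 0 on day 1, 0 on day 2, 1 with the replicate block, 0 on the compared groups, 4 after quantile normalization, 0 after centring, 5 with array spread and 0 to 3 with a pool left out. Among other proteasome genes 1 were called, and 0 with no day term, 10 on day 1, 0 on day 2, 0 on the compared groups, 4 after quantile normalization, 2 after centring, 0 by most variable probe set, 7 with array spread and 0 to 3 with a pool left out. Over all genes 2724 were called, and 986 with no day term, 5376 on day 1, 331 on day 2, 1238 on the compared groups and 1115 to 4007 with a pool left out. The sign changed on day 1 at 0.16 (Psme1), 0.23 (Psme2), 0.10 (Psmb5) and 0.06 (Nlrc5), on day 2 at -0.094 (Psmb6) and -0.048 (Psmb7), after quantile normalization at -0.15 (Psmb6) and -0.009 (Psmb7), after centring at 0.058 (Psme2), with array spread at -0.15 (Psmb6) and -0.26 (Psmb7) and with array weights at -0.013 (Psmb6). When single pools were removed, Psmb6 ran from -0.038 to 0.11, Psmb7 ran from -0.027 to 0.36, Psme2 ran from -0.17 to 0.15, Psme1 ran from -0.33 to 0.021 and Psmb5 ran from -0.17 to 0.014.

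In the average knockout effect, 1 immune genes were called, and 0 with no day term, 0 on day 2, 3 after quantile normalization, 2 by mean of probe sets, 2 by most variable probe set, 2 with array spread, 2 with array weights and 0 to 2 with a pool left out. Calls of other proteasome genes numbered 17, and 8 with no day term, 11 on day 1, 7 on day 2, 11 after quantile normalization and 9 to 23 with a pool left out. Over all genes 8831 were called, and 4279 on day 2 and 1353 with array spread. Signs turned on day 1 at 0.047 (Psmb10), on day 2 at -0.10 (Psmb9), after quantile normalization at -0.24 (Psmb9) and -0.048 (Psme1), after centring at 0.003 (Psmb10) and 0.007 (Psmb5), by mean of probe sets at -0.14 (Psmb9), by most variable probe set at -0.24 (Psmb9), with array spread at -0.11 (Psmb9), -0.19 (Psme1), -0.22 (Psme2), -0.058 (Psmb6), -0.33 (Psmb7), -0.15 (Psme3), -0.081 (Psmg1), -0.32 (Psmg2), -0.12 (Psma6), -0.22 (Psma1) and -0.18 (Psma4) and with array weights at -0.02 (Psmb9). With a pool left out, Psmb9 ran from -0.027 to 0.052.

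In the difference of knockout effects (VAT minus SAT), 1 immune genes were called, and 0 with no day term, 0 on day 1, 5 on day 2, 5 after quantile normalization, 2 after the filter, 2 by mean of probe sets, 0 by most variable probe set, 4 with array spread, 5 with array weights and 1 to 5 with a pool left out. Among other proteasome genes 0 were called, and 1 on day 1, 4 on day 2, 2 after quantile normalization and 2 with array spread. Over all genes 722 were called, and 455 with no day term, 330 on day 1, 1904 on day 2, 1694 with array spread, 1209 with array weights and 546 to 1310 with a pool left out. The sign changed on day 1 at 0.32 (Psmb7), on day 2 at -0.20 (Psmb5), after centring at -0.017 (Psmb5), with array spread at 0.14 (Psmb7) and with array weights at -0.034 (Psmb5). When single pools were removed, Psmb5 ran from -0.082 to 0.10.

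In KO-LysM SAT minus WT VAT, 0 immune genes were called, and 2 on day 1 and 0 to 1 with a pool left out. Calls of other proteasome genes numbered 0, and 6 on day 1, 2 with array spread and 0 to 3 with a pool left out. Over all genes 1178 were called, and 51 with no day term, 4017 on day 1, 18 on day 2, 645 with the replicate block, 205 on the compared groups, 656 with array spread, 616 with array weights and 177 to 3388 with a pool left out. Signs turned on day 2 at -0.061 (Psmb10), -0.038 (Psme1), -0.11 (Psmb5) and -0.04 (Psmb7), after quantile normalization at -0.001 (Psmb10), -0.001 (Psme1) and -0.071 (Psmb5), by most variable probe set at -0.024 (Psmb9) and with array spread at -0.085 (Psmb10), -0.027 (Psmb8), -0.12 (Psme1), -0.19 (Psmb5) and -0.31 (Psmb7). With a pool left out, Psmb5 ran from -0.019 to 0.16 and Psmb7 ran from -0.019 to 0.37.

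In KO-LysM VAT minus WT SAT, 2 immune genes were called, and 1 with no day term, 1 on day 1, 1 with the replicate block, 1 after centring and 1 to 3 with a pool left out. Among other proteasome genes 8 were called, and 5 with no day term, 3 on day 1, 13 on day 2, 16 on the compared groups, 13 after quantile normalization, 18 with array spread, 17 with array weights and 4 to 17 with a pool left out. Over all genes 6717 were called, and 4426 with no day term, 1702 on day 1, 1859 with array spread and 3851 to 8180 with a pool left out. The sign changed on day 1 at -0.10 (Psme2), after quantile normalization at -0.10 (Psme1), -0.14 (Psme2) and -0.059 (Psmb6) and with array spread at -0.26 (Psme1), -0.52 (Psme2), -0.14 (Psmb6), -0.34 (Psmb7), -0.0004 (Psme3), -0.092 (Psmg2) and -0.007 (Psmc4). When single pools were removed, Psme2 ran from -0.011 to 0.32.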
